A study of Mus musculus with 30 samples.

Results

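MC38 tumours, grown from a colon carcinoma line of the mouse, were compared 4 days after treatment with an unmasked positive control or with vehicle. The members are the 10 libraries whose titles name either treatment at day 4, 5 of each, out of 30 libraries in the series. All of these tumours grew under the skin of the right flank of female C57BL/6J mice that were 10 weeks old when MC38 cells were injected. Each mouse received 1 intravenous injection once its tumour measured 200 to 300 mm3. The unmasked control was given at 0.03 mg/kg. The labels do not name its molecule, and the series title names a tumour-activated interleukin-12, so the control is described here by its label. The other groups used for reference are mXTX301, the masked drug, at 0.39 mg/kg and day 4, and the unmasked control and vehicle groups at day 7, again with 5 libraries each. MC38 is 1 transplanted line, so the tumour cells of all groups share 1 origin, and the mice are of the immunocompetent strain of that line. The labels do not say whether replicates of a group were handled together, so p-values measure the spread between these libraries.

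Interleukin-12 is a cytokine made by dendritic cells and macrophages. It binds a receptor of the subunits IL12RB1 and IL12RB2 on natural killer (NK) cells and activated T cells, signals through JAK2, TYK2 and STAT4, and drives these cells to make interferon-gamma. Interferon-gamma then acts through JAK kinases and IRF1 on nearly every cell of a tumour, where it raises antigen presentation, guanylate-binding proteins and the chemokines that draw T cells. Type I interferons act through a related but separate receptor and a complex that includes STAT2 and IRF9.

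Polyadenylated RNA of homogenised tumour tissue was sequenced, so every level below is a mixture of tumour, immune, vessel and stromal cells, and fewer cells of a type cannot be told apart from less RNA per cell. Total counts were 50231965 to 64572379 in the vehicle libraries and 52482743 to 85195518 in the unmasked libraries. Levels are CPM, read counts divided by the TMM-scaled library total, and they compare libraries for 1 gene, not genes with each other. Vehicle replicate 5 had the lowest TMM factor of its group (0.916) and the largest share of counts in its 50 top genes (13.7%). Epidermal transcripts were most abundant in unmasked replicate 5 (631.2 CPM summed over the skin list) and vehicle replicate 4 (148.8 CPM), against a median of 15.7 CPM over all libraries. The carcinoma cells could not be checked against their keratins. Krt8 and Krt18 averaged under 0.02 CPM in both groups and were below the filter on low counts, but so was Eno1, a glycolysis gene that every cell uses, so a level near 0 in this table cannot be told apart from reads lost in counting. The epithelial adhesion gene Epcam averaged 0.131 CPM in vehicle and 0.443 CPM in unmasked libraries.

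Of 15482 genes tested with edgeR's quasi-likelihood test, 1800 were called higher and 1665 lower at a Benjamini-Hochberg adjusted p under 0.05, which is 11.6% and 10.8% of genes. These shares are the background against which each gene list is read. Genes that also changed at least 2-fold made up 2.94% (higher) and 1.36% (lower). All 5 unmasked libraries lay above all 5 vehicle libraries in 7.3% of genes and below them in 6.54%. The median log2 fold change over all genes was -0.011, and its 5% and 95% quantiles were -0.76 and 1.1. Of a panel of 30 genes chosen to be named, 20 rose, 2 fell and 8 did not pass. These counts depend on that choice and are not a share to set against the background.

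Promoters of 6 genes that moved are shown first, with matches to DNA motifs of interferon responses marked. Whether these motifs divide the interferon classes described below was not tested. The gamma-activated site (GAS) of interferon-gamma target genes is spelled here TTCNNNGAA, and the IRF family binds elements like GAAANNGAA, called ISRE-like here. Each window runs from 250 bases before to 50 bases after the annotated start in RefSeq (GRCm38.p6), 5′ to 3′ on the gene's strand, and capitals mark motif matches. Both strands were searched and overlapping matches were kept. Gbp2b, Irf1, Serpina3f, Irgm1 and Il12rb2 rose, and Ifit1bl1 fell.
Gbp2b, chr3:142594597-142594896, plus strand: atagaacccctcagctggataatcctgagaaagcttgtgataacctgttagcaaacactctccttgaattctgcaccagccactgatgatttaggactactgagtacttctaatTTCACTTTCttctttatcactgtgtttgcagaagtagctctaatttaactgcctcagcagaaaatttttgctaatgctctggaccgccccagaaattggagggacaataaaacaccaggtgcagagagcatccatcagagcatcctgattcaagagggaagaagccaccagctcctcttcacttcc
Irf1, chr11:53769764-53770063, plus strand: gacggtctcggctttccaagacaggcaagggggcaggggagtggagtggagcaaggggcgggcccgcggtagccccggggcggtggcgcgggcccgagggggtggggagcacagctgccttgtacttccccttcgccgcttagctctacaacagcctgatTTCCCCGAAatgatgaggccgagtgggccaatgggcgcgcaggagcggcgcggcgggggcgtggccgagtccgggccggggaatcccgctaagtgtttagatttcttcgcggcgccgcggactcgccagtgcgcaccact
Serpina3f, chr12:104214294-104214593, plus strand: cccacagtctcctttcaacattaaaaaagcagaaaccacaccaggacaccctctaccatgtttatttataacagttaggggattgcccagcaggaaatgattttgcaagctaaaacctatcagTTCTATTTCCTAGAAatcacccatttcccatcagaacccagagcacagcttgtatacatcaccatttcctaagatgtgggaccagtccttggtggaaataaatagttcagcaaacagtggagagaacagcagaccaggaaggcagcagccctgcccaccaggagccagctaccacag
Irgm1, chr11:48871371-48871670, minus strand: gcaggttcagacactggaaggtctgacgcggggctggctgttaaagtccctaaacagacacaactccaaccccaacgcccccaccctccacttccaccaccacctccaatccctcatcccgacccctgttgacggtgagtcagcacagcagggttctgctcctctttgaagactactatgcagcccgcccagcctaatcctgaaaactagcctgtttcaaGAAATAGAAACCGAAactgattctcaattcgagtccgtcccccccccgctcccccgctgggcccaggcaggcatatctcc
Il12rb2, chr6:67376139-67376438, minus strand: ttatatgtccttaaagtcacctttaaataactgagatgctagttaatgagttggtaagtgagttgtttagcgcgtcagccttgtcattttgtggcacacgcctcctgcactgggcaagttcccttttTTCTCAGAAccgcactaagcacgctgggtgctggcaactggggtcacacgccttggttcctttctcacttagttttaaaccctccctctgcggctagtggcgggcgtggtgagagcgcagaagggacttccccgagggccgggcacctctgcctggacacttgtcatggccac
Ifit1bl1, chr19:34601919-34602218, minus strand: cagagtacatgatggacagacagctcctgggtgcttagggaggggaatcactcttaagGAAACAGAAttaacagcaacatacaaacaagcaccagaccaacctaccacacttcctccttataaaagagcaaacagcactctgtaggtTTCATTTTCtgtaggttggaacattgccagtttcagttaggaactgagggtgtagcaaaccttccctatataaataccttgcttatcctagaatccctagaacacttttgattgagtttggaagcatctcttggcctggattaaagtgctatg
These windows were chosen because they hold a match, and other called genes had none: the Tap1 window (a gene that rose) and all 3 windows of Mest (which fell) held neither motif. RefSeq gives Irf1 a second start, and the window there held neither motif. The Irf1 window shown held a GAS at -90 to -82 from the start, and the Il12rb2 window held one at -123 to -115. In Serpina3f a GAS at -121 to -113 overlapped an ISRE-like match at -127 to -119. The Irgm1 window held overlapping ISRE-like matches at -30 to -22 and -24 to -16, and the Gbp2b window held one at -136 to -128. Ifit1bl1, whose level fell, also held ISRE-like matches, at -192 to -184 and -103 to -95. Among 14963 windows of tested genes, 7.06% held a GAS and 7.36% an ISRE-like match. Of 8 tested immunity-related GTPase genes 7 had a window, and 6 of the 7 windows held an ISRE-like match and 5 a GAS. Of 6 guanylate-binding protein windows 5 held an ISRE-like match and 2 a GAS. Of 19 type I interferon response windows 12 held an ISRE-like match and 4 a GAS. Of 17 MHC class I windows the counts were 5 and 1, and of 15 endothelial windows 1 and 0. Windows covered 76.5% of tested genes and 72.1% of the genes called at least 2-fold higher, too few for a comparison of motif shares between gene sets, so that check is void.

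The receptor for interleukin-12 rose with its product. Ifng, the gene for interferon-gamma (gene 15978; chr10:118441046-118445892, plus strand), read 0.237, 0.335, 0.569, 0.079 and 0.0348 CPM in vehicle replicates 1 to 5. It read 3.92, 8.78, 4.54, 3.68 and 6.5 CPM in unmasked replicates 1 to 5. The groups did not overlap, and the lowest unmasked library was above the highest vehicle library by several times (log2 fold change 4.45 ± 0.56 SE, adjusted p = 3.05e-06). Il12rb2, which encodes the signalling subunit of the receptor, read 0.158, 0.229, 0.294, 0.142 and 0.314 CPM in vehicle and 2.99, 1.48, 0.99, 2.29 and 2.27 CPM in unmasked libraries. Its groups also stood apart, by 8.75-fold (adjusted p = 1.56e-05). Il12rb1, the shared subunit, read 53.7, 48.4, 39, 41 and 34.3 CPM in vehicle and 120, 139, 106, 110 and 92.5 CPM in unmasked libraries. That is a 2.62-fold rise with little spread in either group (log2 fold change 1.39 ± 0.12 SE, adjusted p = 6.23e-09).

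In the list of interleukin-12 receptor and signalling genes, 9 of 19 tested members rose and 1 fell, with a median log2 fold change of 0.41. The fall was that of Gadd45b, a stress-induced gene named after its values were seen (1.26-fold, adjusted p = 0.0276). No member was lower without vehicle replicate 5 or unmasked replicate 1, 4 or 5, and 2 were lower without unmasked replicate 3. The kinase gene Jak2 rose 1.39-fold (adjusted p = 0.000333), and Tbx21, which encodes the T helper 1 transcription factor T-bet, rose 6-fold (adjusted p = 8.12e-05). Socs1, a feedback inhibitor of JAK kinases, rose 1.84-fold, and the protease gene Furin rose 1.58-fold. Stat4, the main transducer of the receptor, averaged 1.43 ± 0.431 CPM in vehicle and 2.46 ± 0.582 CPM in unmasked libraries (SD, n = 5), the groups overlapped, and the difference did not pass (edgeR adjusted p = 0.0786). It passed when vehicle replicate 3 (adjusted p = 0.0418) or unmasked replicate 3 (adjusted p = 0.0483) was left out. The interleukin-18 receptor, a partner of interleukin-12 in driving interferon-gamma, also rose. Il18r1 went from 0.532 ± 0.192 to 5.32 ± 1.68 CPM (9.98-fold, adjusted p = 2.75e-05), and its co-receptor gene Il18rap rose 2.98-fold (adjusted p = 0.00121). The secreted antagonist gene Il18bp rose 3.17-fold (adjusted p = 1.49e-06), while Il18 itself (adjusted p = 0.203) did not pass and the adaptor gene Myd88 fell 1.23-fold.

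Downstream of interferon-gamma, the transcription factor gene Irf1 rose. It read 337, 317, 324, 377 and 310 CPM in vehicle and 648, 782, 813, 812 and 686 CPM in unmasked libraries, a 2.25-fold rise with no overlap (log2 fold change 1.17 ± 0.07 SE, adjusted p = 9.37e-12). Irf8, a factor of myeloid cells, rose 2.3-fold (adjusted p = 0.000603), and Jak1 and Irf2 rose 1.26-fold and 1.28-fold. In the list of interferon-gamma receptor and JAK-STAT genes 7 of 15 rose and 0 fell (median log2 fold change 0.33).

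The families of interferon-inducible GTPases, which attack membranes of intracellular pathogens, rose as a whole. All 11 tested guanylate-binding protein genes and all 8 tested immunity-related GTPase genes were called higher, with medians of 2.16 and 1.23, and in none of the 19 did the groups overlap. Gbp2b (gene 14468; chr3:142594847-142619179) read 0.217, 0.457, 0.294, 0.126 and 0.174 CPM in vehicle and 11.1, 43.4, 21.3, 9.42 and 14.4 CPM in unmasked libraries. Unmasked replicate 2 was the highest and replicate 4 the lowest of its group, and both were far above vehicle (log2 fold change 6.27 ± 0.65 SE, adjusted p = 1.95e-07). Gbp10 rose 17.1-fold, from 1.02 ± 0.448 to 17.5 ± 4.31 CPM, Gbp8 rose 7.33-fold and Gbp4 rose 6.3-fold. Gbp2, at 260 ± 32.7 CPM in vehicle, rose 4.48-fold (adjusted p = 9.37e-12). Among the immunity-related GTPases, Iigp1 rose 3.73-fold (adjusted p = 2.02e-10), Igtp 2.88-fold, Irgm1 2.16-fold and Ifi47 1.88-fold. Members of these families are close copies of each other (Gbp6 with Gbp10, Gbp4 with Gbp8, Tgtp1 with Tgtp2), so the division of reads within a pair is uncertain. Serpina3f, a serine protease inhibitor gene, read 1.05, 0.655, 1.3, 0.616 and 1.25 CPM in vehicle and 15.8, 18.5, 12.1, 16.8 and 12.8 CPM in unmasked libraries. Its 15.6-fold rise (adjusted p = 1.53e-11) came with a 4.05-fold rise of its close copy Serpina3g, and Apol6, an apolipoprotein L gene, rose 6.09-fold (adjusted p = 2.55e-08).

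**Figure D1:**
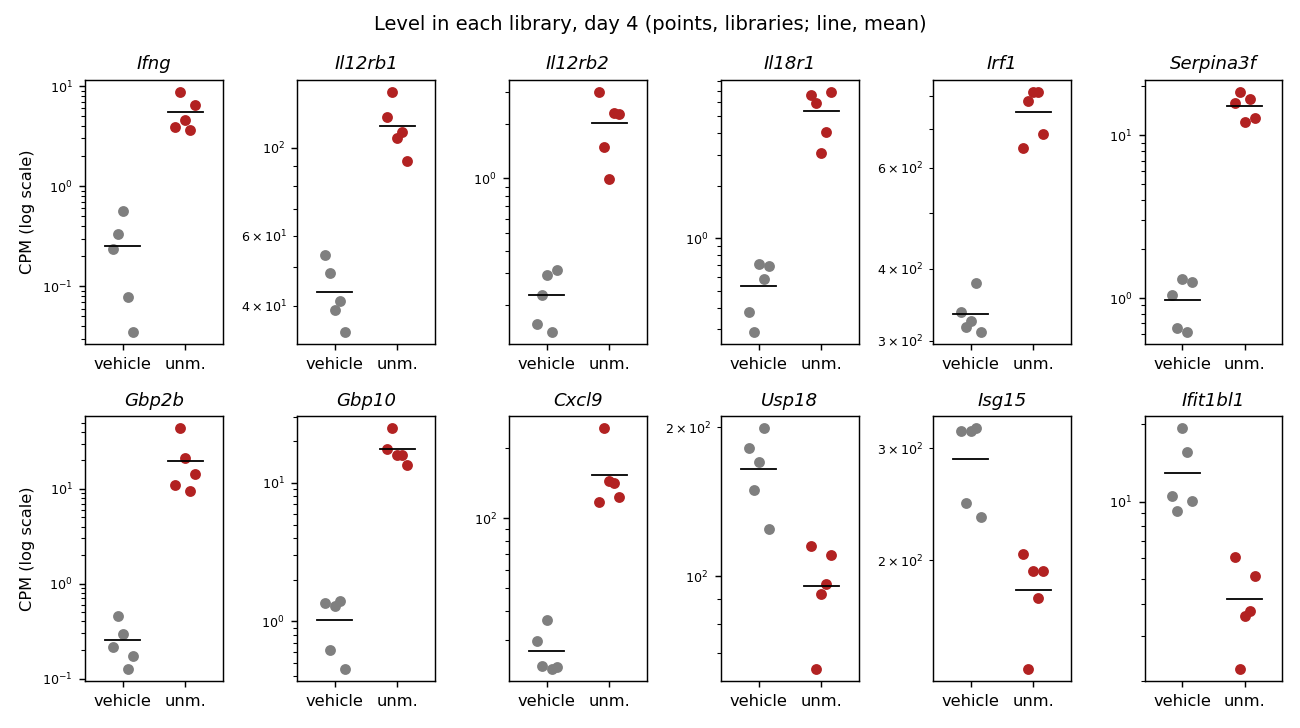
Level of 12 genes in each day 4 library (points) with the group mean (line), in CPM on a log axis; vehicle is grey and the unmasked control (unm.) is red. The first 9 genes are higher in all 5 unmasked libraries, and Usp18, Isg15 and Ifit1bl1 are lower in all 5.

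Genes best known as targets of type I interferon fell in part. Of 25 tested members 11 fell and 1 rose (median log2 fold change -0.39), against a background of 10.8% lower. Usp18, a protease that removes ISG15 and dampens the type I interferon receptor, read 182, 149, 170, 199 and 124 CPM in vehicle and 115, 65, 92.3, 96.3 and 110 CPM in unmasked libraries. The highest unmasked library lay under the lowest vehicle library (1.72-fold lower, adjusted p = 0.000965). Isg15, the ubiquitin-like modifier itself, read 319, 246, 320, 322 and 234 CPM in vehicle and 205, 135, 192, 175 and 193 CPM in unmasked libraries (1.6-fold lower, adjusted p = 0.00395). Oas1a, which makes the activator of RNase L, fell from 154 ± 17.1 to 89.3 ± 13 CPM (adjusted p = 6.19e-05).

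The antiviral GTPase genes Mx1 and Mx2 fell 1.87-fold and 2.09-fold (adjusted p = 0.00401 and 0.00567), although vehicle replicate 5 overlapped the unmasked libraries in both, and Dhx58, an RNA sensor gene, fell 1.31-fold. Ifit1bl1, from the family of interferon-induced proteins that bind foreign RNA, read 10.5, 9.16, 19.3, 15.6 and 10.1 CPM in vehicle and 6.1, 2.23, 3.56, 3.76 and 5.14 CPM in unmasked libraries (3.12-fold lower, adjusted p = 0.000176). Zbp1, the sensor of Z-form nucleic acids, was the 1 member that rose (1.29-fold, adjusted p = 0.0202), and its call was lost without vehicle replicate 5 (adjusted p = 0.0593) or unmasked replicate 2 (adjusted p = 0.0512). Bst2, which encodes tetherin, did not pass (adjusted p = 0.44). At day 7, in other mice, 9 of the 25 members were lower and 1 higher than vehicle, and the shares over all genes on that day are not given here.

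**Figure D2:**
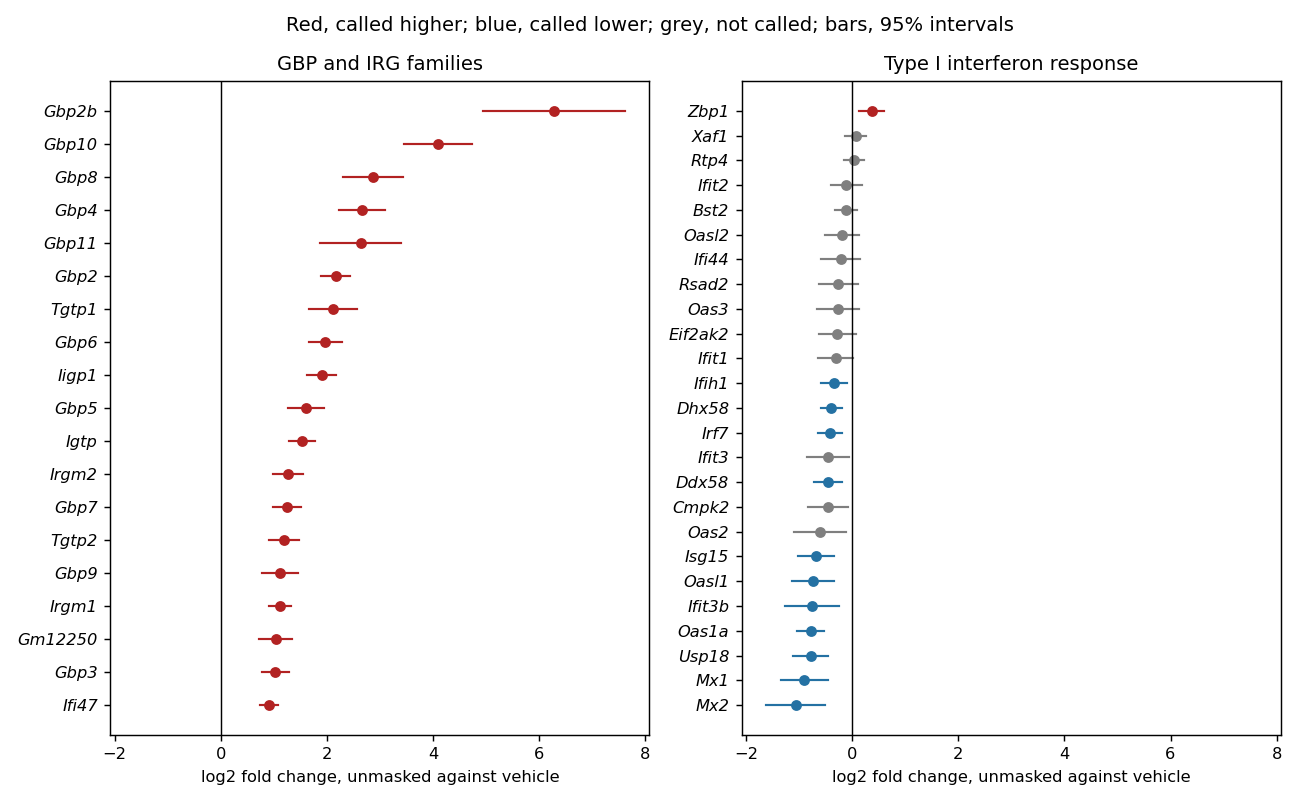
Log2 fold change of the unmasked control against vehicle at day 4 (points) with 95% intervals (bars), for guanylate-binding proteins and immunity-related GTPases (left) and type I interferon response genes (right). All 19 genes on the left are called higher, while 11 of 25 on the right are called lower and 1 higher.

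Both routes of antigen presentation rose. In the MHC class I list, which holds the heavy chains, the peptide transporter and the immunoproteasome, 14 of 17 genes rose and 0 fell, with small effects (median log2 fold change 0.43). Tap1, a subunit of the peptide transporter, read 421, 371, 392, 450 and 507 CPM in vehicle and 758, 805, 764, 783 and 749 CPM in unmasked libraries, a 1.8-fold rise with no overlap (adjusted p = 7.04e-10). The immunoproteasome subunit genes Psmb9 and Psmb8 rose 1.71-fold and 1.56-fold, and Tap2 and the chaperone gene Tapbp rose 1.51-fold and 1.43-fold. The class I heavy chain gene H2-K1 rose 1.24-fold (adjusted p = 0.00384), but vehicle replicate 5 lay among the unmasked libraries, and its reads can be shared with near-identical class I genes. In the MHC class II list 10 of 13 rose and 0 fell (median 1.44). Ciita, the master regulator of class II genes, read 4.07, 3.61, 4.64, 2.01 and 1.45 CPM in vehicle and 24.4, 25.7, 14.2, 23.3 and 17.8 CPM in unmasked libraries, a 6.69-fold rise (adjusted p = 8.93e-08). The invariant chain gene Cd74 rose 5.09-fold, the class II chain genes H2-Aa, H2-Eb1 and H2-Ab1 rose 4.92-fold, 4.83-fold and 4.46-fold, and the peptide exchange genes H2-DMa and H2-DMb1 rose 3.77-fold and 2.71-fold.

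Genes of T cells and NK cells were higher, from low levels. In the T cell list 15 of 19 tested members rose and 0 fell (median log2 fold change 1.83). Cd8a, which encodes the CD8 alpha chain of killer T cells (gene 12525; chr6:71373427-71379173, plus strand), read 2.77, 1.01, 2.77, 1.09 and 1.88 CPM in vehicle and 14.5, 10.5, 4.26, 10 and 13.7 CPM in unmasked libraries. Unmasked replicate 3 was the lowest of its group and still above every vehicle library (5.6-fold, adjusted p = 0.00144). Cd8b1, the partner chain, rose 7.14-fold (adjusted p = 0.00031), Cd3e 5.13-fold, the kinase gene Zap70 4.61-fold and the co-stimulatory receptor gene Cd28 6.15-fold. Cd4, which marks helper T cells and which some mouse myeloid cells also express, read 1.09, 1.33, 1.41, 0.759 and 0.749 CPM in vehicle and 1.43, 1.65, 0.63, 0.852 and 0.827 CPM in unmasked libraries. Those values overlapped and the difference did not pass (log2 fold change 0.02 ± 0.40 SE, adjusted p = 0.979). Among genes of regulatory T cells 2 of 11 rose: Tnfrsf18, which encodes GITR, by 2.19-fold and Ikzf4 by 2.87-fold at under 1 CPM (1 of the list without both skin-containing libraries, vehicle replicate 4 and unmasked replicate 5). Foxp3, their defining factor, averaged 0.817 ± 0.295 CPM in vehicle and 0.577 ± 0.141 CPM in unmasked libraries (adjusted p = 0.415).

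Killing genes rose with them. In the cytotoxic list 12 of 18 members rose and 0 fell (median log2 fold change 1.73), and in the NK cell list 13 of 16 rose and 0 fell (median 1.84). Gzma, which encodes granzyme A (chr13:113093825-113100981, minus strand), read 0.929, 1.01, 1.23, 1.04 and 2.32 CPM in vehicle and 6.14, 5.34, 6.5, 4.04 and 8.54 CPM in unmasked libraries (4.67-fold, adjusted p = 5.2e-05). Gzmb, which encodes granzyme B, read 8.01, 9.04, 8.9, 16.2 and 25.8 CPM in vehicle and 49.9, 27.7, 31, 30.4 and 42.5 CPM in unmasked libraries. Vehicle replicate 5 came close to the lowest unmasked library, and the 2.67-fold rise passed (adjusted p = 0.0161). The pore-forming perforin gene Prf1 rose 3.95-fold (adjusted p = 0.00764), the granule gene Nkg7 5.26-fold (adjusted p = 0.000152) and the death ligand gene Fasl 4.69-fold. Of the NK receptors, Klrc1 rose 6.05-fold and Klrk1, which encodes NKG2D, 2.73-fold. Klra1, a Ly49 family gene, lay between 0 and 0.0395 CPM in vehicle and between 0.168 and 0.282 CPM in unmasked libraries (adjusted p = 0.000225). Its counts are very low and Ly49 and Klrc genes have close copies, so the division of reads among them is uncertain. Ncr1, the NK marker NKp46, rose 2.78-fold (adjusted p = 0.0291) with overlapping groups. Its call was lost when vehicle replicate 1, 2, 3 or 4 or unmasked replicate 1 or 5 was left out (adjusted p 0.0505 to 0.105). The cytokine receptor genes that support these cells also rose: Il2rb by 3.23-fold, Il7r by 4.11-fold and Il15ra by 1.91-fold (4 of 10 genes of the common gamma-chain list, 0 lower).

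Checkpoint genes rose alongside activation genes. In the inhibitory list 8 of 15 rose and 1 fell (Lgals9, which encodes galectin-9 and was named after its values were seen; 0 fell without unmasked replicate 2), and in the co-stimulatory list 9 of 15 rose and 0 fell. Cd274, which encodes PD-L1, read 38.3, 33, 47.4, 51.3 and 33.3 CPM in vehicle and 129, 175, 118, 149 and 154 CPM in unmasked libraries (3.57-fold, adjusted p = 6.38e-08). Its receptor gene Pdcd1, which encodes PD-1, rose 6.23-fold (adjusted p = 5.46e-05), the second ligand gene Pdcd1lg2 5.36-fold and Entpd1, the ectonucleotidase CD39, 2.93-fold. On the activating side Cd226, the receptor DNAM-1, went from 0.0998 ± 0.0365 to 1.17 ± 0.314 CPM (adjusted p = 3.38e-05), Slamf7 rose 3.03-fold and Tnfrsf9, which encodes 4-1BB, 1.95-fold.

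Of 9 tested T cell-attracting chemokines only Cxcl9 was called, a share of members near the background of 11.6%. Cxcl9, the CXCR3 ligand most tied to interferon-gamma, read 29.7, 23.1, 36.7, 22.5 and 23 CPM in vehicle and 118, 243, 145, 141 and 123 CPM in unmasked libraries. Unmasked replicate 2 was well above its group, and the 5.71-fold rise passed (adjusted p = 2.64e-08). Cxcl10, which both interferon types induce, averaged 912 ± 129 and 1234 ± 104 CPM in vehicle and unmasked libraries. Its groups did not overlap, the adjusted p was 0.0511, and it passed without vehicle replicate 4 (adjusted p = 0.0426) and with DESeq2 (adjusted p = 0.0316). Ccl5 averaged 62.3 ± 7.79 and 79.3 ± 5.73 CPM, again without overlap (adjusted p = 0.164). The number of called chemokines was 2 without vehicle replicate 4 or unmasked replicate 3, 3 with DESeq2 and 4 when the fit held only these 10 libraries. Of 8 tested chemokine receptors of lymphocytes 2 rose and 1 fell (median log2 fold change -0.12). Cxcr6, whose product binds CXCL16 on tissue T cells, was 8.88-fold higher, going from 0.651 ± 0.27 to 5.76 ± 2.1 CPM (adjusted p = 0.000165). S1pr1, the receptor for lymphocyte exit that endothelium also expresses, fell 1.4-fold (adjusted p = 0.0347), a call lost without vehicle replicate 3 (adjusted p = 0.114) or unmasked replicate 1, 3, 4 or 5 (adjusted p 0.0522 to 0.0853). Cxcr3, the receptor for CXCL9, averaged 0.704 and 0.996 CPM and did not pass (adjusted p = 0.369).

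Myeloid genes rose in part, led by arginine-using and tryptophan-using enzymes. In the list of classically activated macrophage effectors 10 of 17 rose and 1 fell (median log2 fold change 0.93). The 1 fall, that of the cytokine gene Il6, named after its values were seen (adjusted p = 0.0321), was lost without vehicle replicate 1 or 3 or unmasked replicate 1, 4 or 5. Nos2, the inducible nitric oxide synthase gene, read 35.6, 49.4, 41.1, 49.3 and 52 CPM in vehicle and 221, 304, 191, 319 and 254 CPM in unmasked libraries (5.67-fold, adjusted p = 6.23e-09). Arg1, the arginase that uses the same substrate and marks alternatively activated cells, rose as well, 3.98-fold (adjusted p = 6.91e-05), as did the arginine transporter gene Slc7a2 at 4.96-fold. Ido1, a tryptophan-degrading enzyme gene, rose 5.56-fold (adjusted p = 4.9e-05) and Acod1, which makes itaconate, 3.92-fold. In the macrophage list 7 of 18 rose and 0 fell, among them the lysosomal gene Gpnmb at 2.44-fold, the Fc receptor gene Fcgr4 at 2.78-fold and Cd68 at 1.69-fold. Without both skin-containing libraries, vehicle replicate 4 and unmasked replicate 5, 4 macrophage genes were called, and 12 were called when the fit held only these 10 libraries.

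Within the list of resident and alternatively activated macrophages the members split. Fcrls, an Fc receptor-like gene of resident macrophages and microglia (gene 80891; chr3:87250758-87263738, minus strand), read 8.46, 7.39, 6.26, 6.91 and 5.26 CPM in vehicle and 0.465, 0.514, 0.738, 0.316 and 0.546 CPM in unmasked libraries. All 5 unmasked libraries were far below vehicle (13.3-fold lower, adjusted p = 3.08e-05). Marco, a scavenger receptor gene, read 1.28, 0.731, 2.37, 0.0474 and 0.296 CPM in vehicle and 6.77, 31.5, 17.9, 4.42 and 6.04 CPM in unmasked libraries. It varied widely in both groups and passed (log2 fold change 3.83 ± 1.11 SE, adjusted p = 0.0144). Msr1 and Chil3 rose 1.9-fold and 2.42-fold, and the remaining 13 of 18 members did not pass. Among monocyte genes 6 of 13 rose, including Ly6i at 3.43-fold and F10, which encodes coagulation factor X, at 3.9-fold.

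Some dendritic cell genes were called, at low levels. The 1 fall in each of the conventional and plasmacytoid lists is near the 10.8% of all genes called lower. It is not read as a fall of either list. Of 13 conventional dendritic cell genes 4 rose and 1 fell. Xcr1 and Clec9a, markers of the cross-presenting subset, rose 4.56-fold and 3.49-fold (adjusted p = 0.0122 and 0.0132), while Flt3, the growth factor receptor of the lineage, fell 2.78-fold (adjusted p = 0.023). The calls of Xcr1 and Clec9a were lost without unmasked replicate 2 (adjusted p = 0.0582 and 0.0509), where 2 of the 4 rises remained, and the call of Flt3 was lost without unmasked replicate 1 or 4 (adjusted p = 0.062 and 0.0644). Of 7 tested plasmacytoid dendritic cell genes 2 rose and 1 fell (median log2 fold change 0.07). The fall was that of the marker Siglech, which averaged 0.378 CPM in vehicle and 0.0801 CPM in unmasked libraries (adjusted p = 0.0261). Its call was lost without vehicle replicate 3 (adjusted p = 0.0814) or unmasked replicate 1, 2 or 3 (adjusted p 0.0545 to 0.0669). Of 15 neutrophil genes 7 rose and 0 fell, among them the collagenase gene Mmp8 at 6.42-fold (adjusted p = 0.000127) and S100a8 at 4.57-fold (adjusted p = 0.0103). This count was 3 without both skin-containing libraries, where S100a8 (adjusted p = 0.074), S100a9 (adjusted p = 0.1) and Lcn2 (adjusted p = 0.0653) were no longer called, and S100a9 was also lost without unmasked replicate 5 (adjusted p = 0.059). Of 8 B cell genes 0 rose and 1 fell, and of 10 mast cell genes 1 rose.

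Of 16 complement genes 5 rose, including C1s1, a protease of the classical pathway, by 3.04-fold and C2 by 2.13-fold. The complement count was 2 without unmasked replicate 2 or without both skin-containing libraries, 3 without vehicle replicate 1, 2, 4 or 5, 8 with DESeq2 and 10 when the fit held only these 10 libraries. Among 21 programmed cell death genes 8 rose and 3 fell. Casp1, the inflammasome caspase gene, rose 1.74-fold (adjusted p = 2.8e-05), its adaptor gene Pycard 2.57-fold and the death receptor gene Fas 1.63-fold, while Bbc3, which encodes the p53 target PUMA, fell 1.53-fold.

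**Figure D3:**
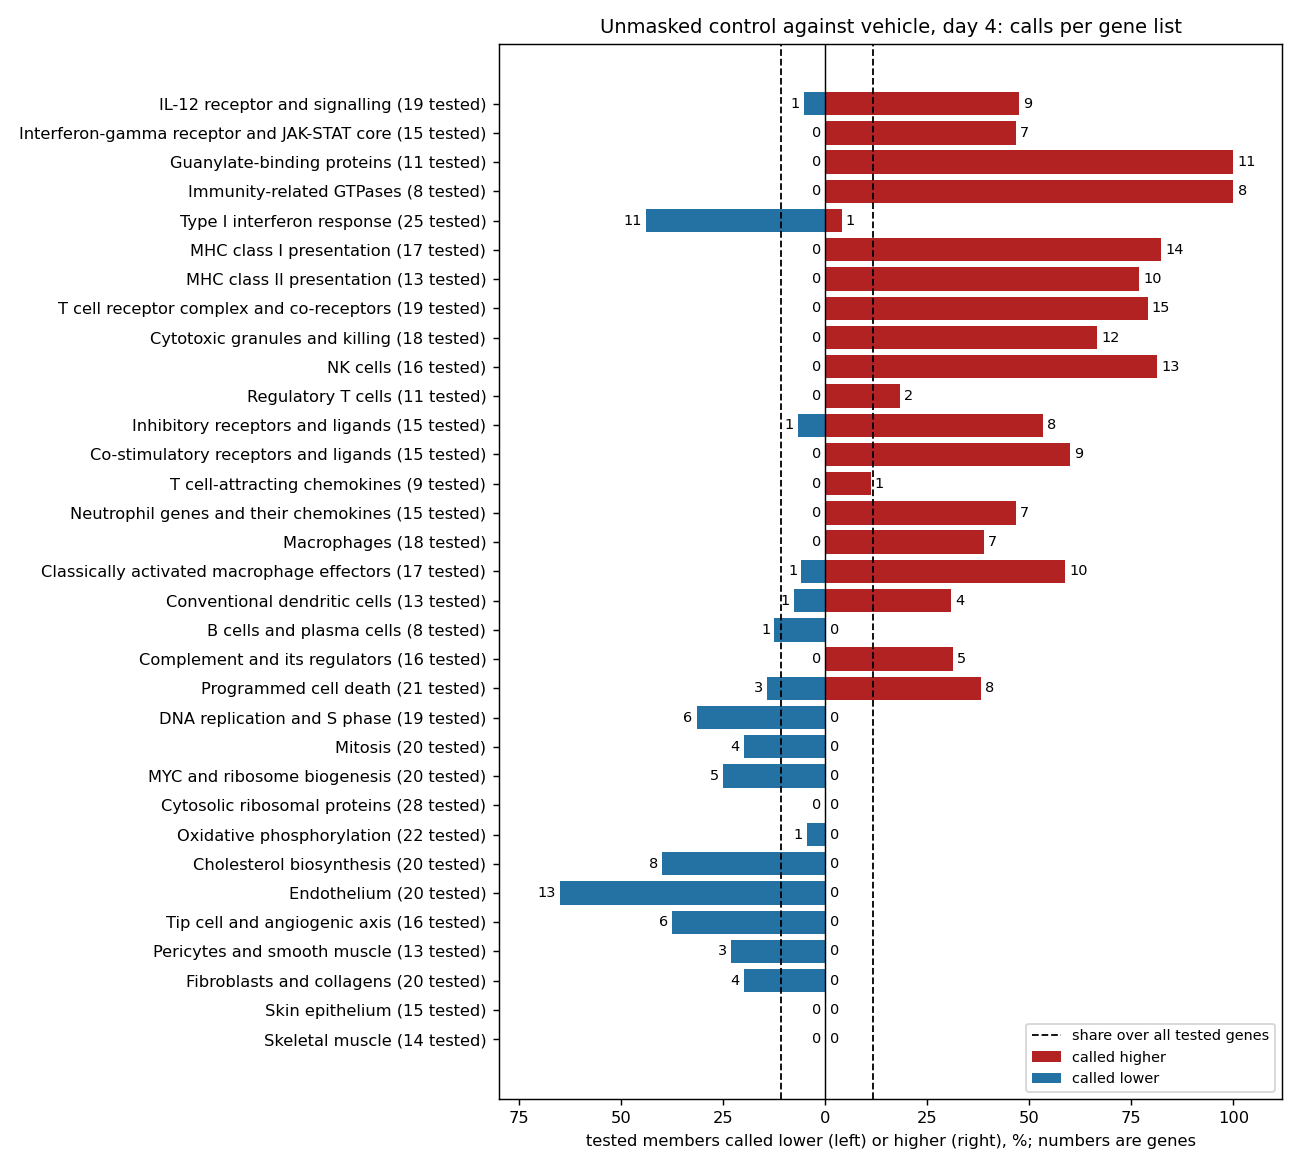
Share of tested members called higher (red, right) or lower (blue, left) in 33 gene lists for the unmasked control against vehicle at day 4, with the number of genes at each bar; dashed lines mark the shares over all tested genes, 11.6% and 10.8%. Guanylate-binding proteins and immunity-related GTPases are higher in every tested member, and endothelium has the largest lower share of the lists drawn, 13 of 20.

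Genes of growth and metabolism changed little. In the S phase list 6 of 19 members fell and 0 rose (median log2 fold change -0.16), led by Tyms, the thymidylate synthase gene, at 1.37-fold lower (adjusted p = 0.000902). In the mitosis list 4 of 20 fell (median -0.11), with Birc5, which encodes survivin, 1.19-fold lower (adjusted p = 0.00468). Mki67, the proliferation marker, averaged 413 ± 101 CPM in vehicle and 411 ± 38.6 CPM in unmasked libraries (adjusted p = 0.972), and vehicle replicate 5 was low at 239 CPM. The S phase count was 2 without unmasked replicate 5, both skin-containing libraries or the libraries over the skin threshold, 3 when the fit held only these 10 libraries, and 10 with DESeq2. The mitosis count was 2 without vehicle replicate 3 or 5, unmasked replicate 1 or the libraries over the skin threshold, and 1 without unmasked replicate 2.

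In the cholesterol synthesis list 8 of 20 fell and 0 rose (median -0.31): Dhcr7, which encodes the enzyme of a late step, was 1.45-fold lower (adjusted p = 0.00879). That count was 5 without vehicle replicate 5 and 4 without unmasked replicate 2. Of 20 MYC and ribosome biogenesis genes 5 fell (2 without vehicle replicate 3), led by Dkc1 at 1.29-fold lower. None of 28 ribosomal protein genes was called, and Ndufa4 was the 1 called gene of 22 in oxidative phosphorylation (1.25-fold lower, adjusted p = 0.0256). The Ndufa4 call was lost without vehicle replicate 5 (adjusted p = 0.129) or unmasked replicate 2 or 4 (adjusted p = 0.0958 and 0.0509). Of 19 glycolysis and hypoxia genes only Ankrd37, a hypoxia target, fell (1.74-fold, adjusted p = 0.006), and 0 rose.

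Vessel genes fell together. Of 20 tested endothelial genes 13 fell and 0 rose (median log2 fold change -0.80), and in 14 of the 20 all unmasked libraries lay below all vehicle libraries, against 6.54% of all genes. Kdr, which encodes VEGF receptor 2 (chr5:75932827-75978458, minus strand), read 19, 18, 24.4, 18.5 and 11.7 CPM in vehicle and 8.18, 5.43, 6.08, 6.69 and 7.87 CPM in unmasked libraries (2.67-fold lower, adjusted p = 0.000276). Tek, which encodes the angiopoietin receptor TIE2, read 3.5, 3.76, 5.8, 3 and 2.84 CPM in vehicle and 0.651, 1.41, 1.39, 0.915 and 0.616 CPM in unmasked libraries (3.78-fold lower, adjusted p = 0.00512). The endothelial transcription factor genes Sox18 and Sox17 fell 2.83-fold and 2.56-fold (adjusted p = 0.000106 and 0.00309), the sialomucin gene Emcn 2.29-fold, Tie1 2.02-fold and the secreted vessel factor gene Egfl7 1.66-fold. Pecam1, which encodes CD31 and is also expressed by leukocytes, averaged 37.9 ± 5.86 and 27.1 ± 2.33 CPM, without overlap, and did not pass (adjusted p = 0.097). Without the libraries over the skin threshold, which include unmasked replicate 5, 8 endothelial genes were called lower.

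The apelin receptor gene Aplnr, a marker of sprouting endothelium (gene 23796; chr2:85136225-85139923, plus strand), showed the largest fall among the called genes named here. It read 8.07, 7.22, 12.6, 5.56 and 3.99 CPM in vehicle and 0.669, 0.287, 0.432, 0.647 and 0.739 CPM in unmasked libraries. The ranges were far apart (log2 fold change -3.76 ± 0.53 SE, adjusted p = 1.72e-05). In the tip cell and angiogenic list 6 of 16 fell and 0 rose, including the Notch ligand gene Dll4 at 2.07-fold lower (adjusted p = 0.000524) and the netrin receptor gene Unc5b at 1.69-fold lower. Apln, the ligand gene of the apelin receptor, fell 1.48-fold (adjusted p = 0.0403), a call lost when vehicle replicate 1, 2 or 3 or unmasked replicate 1, 4 or 5 was left out (adjusted p 0.0657 to 0.107). Other large falls were in genes also known from endothelium: Pcdh12, a protocadherin gene, fell 5.11-fold (adjusted p = 4.75e-06), Tspan18 4.17-fold and Apold1 3.4-fold. Of 8 tested genes of endothelial activation and leukocyte adhesion 1 rose and 1 fell, near the shares over all genes (11.6% and 10.8%). Icam2 fell 1.74-fold (adjusted p = 0.00135) while Icam1, which inflammation induces on many cell types, rose 2.21-fold (adjusted p = 0.00407). Sele, the E-selectin gene, stayed at or under 0.386 CPM in all 10 libraries.

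**Figure D4:**
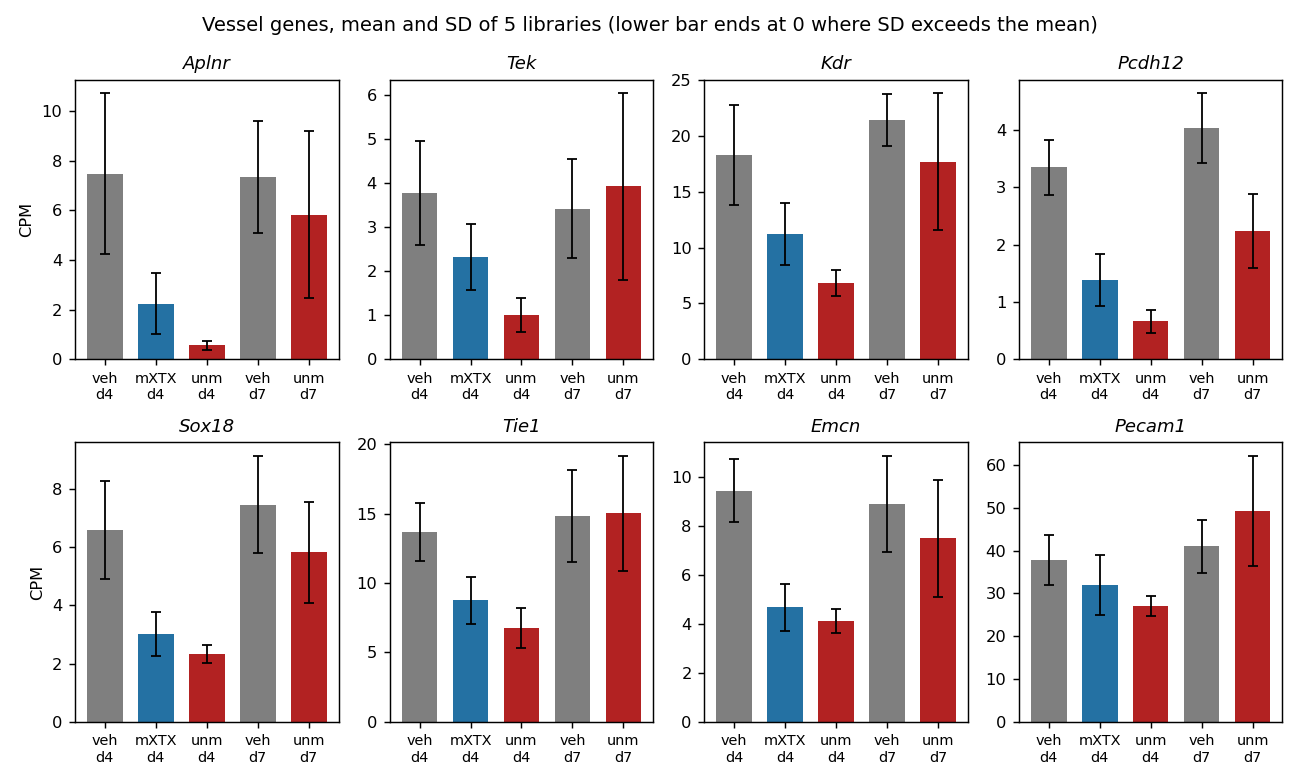
Mean level (bars, CPM) and SD (error bars) of 8 vessel genes in 5 groups of 5 libraries: vehicle, mXTX301 and the unmasked control at day 4, and vehicle and the unmasked control at day 7. Aplnr, Tek and Kdr are lowest in the unmasked control at day 4 and lie closer to vehicle at day 7.

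Mural and stromal genes moved less. Of 13 pericyte and smooth muscle genes 3 fell: Mcam, which encodes CD146 and is shared with endothelium, 2.15-fold (53 ± 9.19 to 24.6 ± 3.9 CPM, adjusted p = 2.97e-05), and the pericyte potassium channel genes Kcnj8 and Abcc9 2.13-fold and 1.92-fold. The call of Abcc9 was lost without vehicle replicate 1 (adjusted p = 0.0604) or unmasked replicate 3 or 4 (adjusted p = 0.0517 and 0.0676). Of 20 fibroblast and collagen genes 4 fell and 0 rose: Col5a1, Col6a1, Col6a2 and Sparc, by 1.31-fold to 1.75-fold. Without unmasked replicate 2 or 5, 2 fibroblast genes were called lower. Calls in the higher direction went from 0 to 2 without vehicle replicate 4 and to 1 without unmasked replicate 5, and without both libraries 2 were higher and 2 lower. Col1a1, the main fibrillar collagen gene, averaged 663 ± 212 and 492 ± 278 CPM with wide overlap (adjusted p = 0.418). Among proteases and their inhibitors, the macrophage elastase gene Mmp12 read 8.62, 6.87, 13.4, 12.5 and 12.7 CPM in vehicle and 50.4, 64.2, 37.7, 46.3 and 50.9 CPM in unmasked libraries (4.62-fold, adjusted p = 3.08e-05).

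The remaining large changes were in genes of other kinds. Mest, an imprinted gene of growing tissue (gene 17294; chr6:30723547-30748465, plus strand), read 17.9, 21.7, 23.1, 18.9 and 21.7 CPM in vehicle and 2.03, 1.09, 1.35, 2.4 and 1.92 CPM in unmasked libraries. Its vehicle libraries varied little and its groups stood far apart (11.8-fold lower, log2 fold change -3.56 ± 0.32 SE, adjusted p = 1.1e-08). Kcne3, a potassium channel subunit gene of epithelia, fell 8.21-fold from 3.85 ± 0.316 to 0.472 ± 0.316 CPM (adjusted p = 1.32e-05), and Mmp15, Nrep and Mdfi fell 3.69-fold, 3.45-fold and 3.24-fold. Pgap1, a gene of GPI anchor remodelling, rose 8.03-fold (adjusted p = 7.63e-06), and Inpp5j, an inositol phosphatase gene, rose 6.83-fold (adjusted p = 0.0001). Of 11 tested genes of epithelial and MC38 identity 1 rose and 1 fell. Those shares lie under the 11.6% higher and 10.8% lower over all genes, so they are not a change of the list. Cdh17, the liver-intestine cadherin gene, rose 4.36-fold from 0.354 ± 0.158 CPM (adjusted p = 0.000782). Krt20, an intestinal keratin gene, fell 7.93-fold from 0.743 ± 0.824 CPM, a mean carried by 2.16 CPM in vehicle replicate 5 (adjusted p = 0.0015).

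Marker lists of tissue around the tumour gave 0 calls for skin (15 genes tested), skeletal muscle (14) and fat (10), but their libraries differed. Summed skin transcripts ran from 9.15 to 148.8 CPM in vehicle and from 7.7 to 631.2 CPM in unmasked libraries. Muscle transcripts ran from 105.8 to 437.1 CPM in vehicle and from 8.03 to 239.6 CPM in unmasked libraries. Platelet genes (5 tested) and erythroid genes (2 tested) had 0 calls, and 3 of 16 immediate early genes fell, among them Ier2 at 1.49-fold lower (adjusted p = 6.38e-05). With summed skin transcripts as a covariate, 1784 genes were called higher and 1651 lower. Without the libraries over the skin threshold the counts were 1475 and 1239, and without vehicle replicate 4 and unmasked replicate 5 they were 1520 and 1468. The part of muscle and other tissues in the results was not tested.

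The masked drug was measured on the same day at another dose. Both day 4 comparisons share the vehicle libraries, so their values are set side by side and doses are not matched (0.03 mg/kg unmasked, 0.39 mg/kg mXTX301). Ifng averaged 5.48 ± 2.15 CPM with the unmasked control and 5.17 ± 3.39 CPM with mXTX301, Irf1 748 ± 76 and 691 ± 23.8 CPM, and Cd8a 10.6 ± 4.04 and 11.9 ± 12.3 CPM. In the direct contrast edgeR called 0 genes (0% of 15482; lowest adjusted p 0.0954), with 2092 genes at an unadjusted p under 0.05, limma-voom called 0, and DESeq2 called 12 higher and 13 lower. With only these 2 groups in the edgeR fit, 105 were higher and 89 lower. These counts do not show that the agents act alike, and the intervals of several differences excluded 0 before adjustment. Aplnr averaged 0.555 ± 0.189 CPM with the unmasked control and 2.23 ± 1.23 CPM with mXTX301 (log2 difference -2.02, 95% interval -3.05 to -0.98). Pcdh12 differed by -1.08 (-1.69 to -0.46), Kdr by -0.71 (-1.23 to -0.19) and Mest by -0.91 (-1.52 to -0.29). For Ifng the difference was 0.09 (-0.86 to 1.03) and for Il12rb1 -0.02 (-0.27 to 0.22). Against the shared vehicle, mXTX301 had 7 of 20 endothelial genes lower where the unmasked control had 13. It had 16 of 28 ribosomal protein genes and 16 of 22 oxidative phosphorylation genes lower where the unmasked control had 0 and 1. The share of all genes called lower for mXTX301 is not given here, so these counts have no background. In the direct edgeR contrast 0 of these genes were called. An unadjusted p under 0.05 was reached by 3 of 20 endothelial, 19 of 28 ribosomal protein and 8 of 22 oxidative phosphorylation genes. Over all tested genes it was reached by 2092 of 15482, a share near that of the endothelial list. The endothelial count is therefore not read as a difference of that list between the agents. Vehicle replicate 5 stood apart in the ribosomal protein (10.63) and oxidative phosphorylation (7.62) list levels.

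At day 7, in separate mice with their own vehicle group, the change from vehicle was set against that of day 4. The change of the effect between days was called in the higher direction for 457 genes (2.95%) and in the lower direction for 341 (2.2%). Both counts moved with single libraries: leaving out 1 library at a time gave 71 (without unmasked day 7 replicate 2) to 1301 (without vehicle day 4 replicate 5) and 57 (without vehicle day 7 replicate 4) to 1724 (without vehicle day 4 replicate 5). Of the genes higher at day 4, the effect was larger at day 7 in 64 and smaller in 72. Of those lower at day 4, 74 had an effect that was less negative or reversed at day 7 and 9 had a more negative one. The change between days reuses the day 4 libraries by which these genes were picked. That choice alone favours a smaller effect at day 7, so these splits do not show recovery. Ifng had a log2 effect of 4.45 at day 4 and 4.55 at day 7 (difference 0.10, 95% interval -1.38 to 1.59, edgeR adjusted p = 0.941), and Irf1 had 1.17 and 1.16.

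The effect was called larger at day 7 for 4 of 19 tested T cell genes and 5 of 13 MHC class II genes, and the other members did not pass that test. Cd4, which did not pass at day 4, averaged 4.4 ± 2.33 CPM against 0.655 CPM in vehicle at day 7 (difference of log2 effects 2.73, edgeR adjusted p = 0.0177). Cd8a averaged 36.5 ± 15.6 CPM at day 7 (difference 2.53, adjusted p = 0.0441), and H2-Ab1 590 ± 232 CPM against 237 ± 73.1 CPM at day 4 (difference 1.86, adjusted p = 0.0253). Cxcr3, not called at day 4, had a larger effect at day 7 (difference 2.48, adjusted p = 0.0211). Gzma went the other way: it averaged 6.11 ± 1.65 CPM at day 4 and 2.65 ± 0.842 CPM at day 7 with the unmasked control (difference -1.73, adjusted p = 0.0366), and Klra1 likewise had a smaller effect at day 7 (difference -3.30, adjusted p = 0.0271). Gzmb had a log2 effect of 1.42 at day 4 and 0.03 at day 7, and this difference did not pass (adjusted p = 0.133).

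None of the 20 endothelial genes was called lower at day 7. Aplnr averaged 5.83 ± 3.37 CPM with the unmasked control and 7.35 CPM with vehicle at day 7, so that its effect differed by 3.42 on the log2 scale (adjusted p = 0.0177). The change between days was itself called for 2 of the 20. Kdr (difference 1.14, adjusted p = 0.0533) and Tek (difference 2.12, adjusted p = 0.0547) did not pass. Mest was lower on both days, with log2 effects of -3.56 and -2.34 (adjusted p of the difference 0.0679). Of the growth genes, 16 of 19 in S phase and 17 of 20 in mitosis were lower than vehicle at day 7, and the change between days was called for 2 and 5 of them. The share of all genes called lower at day 7 is not given here, and the background of day 4 does not apply to these counts.

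**Figure D5:**
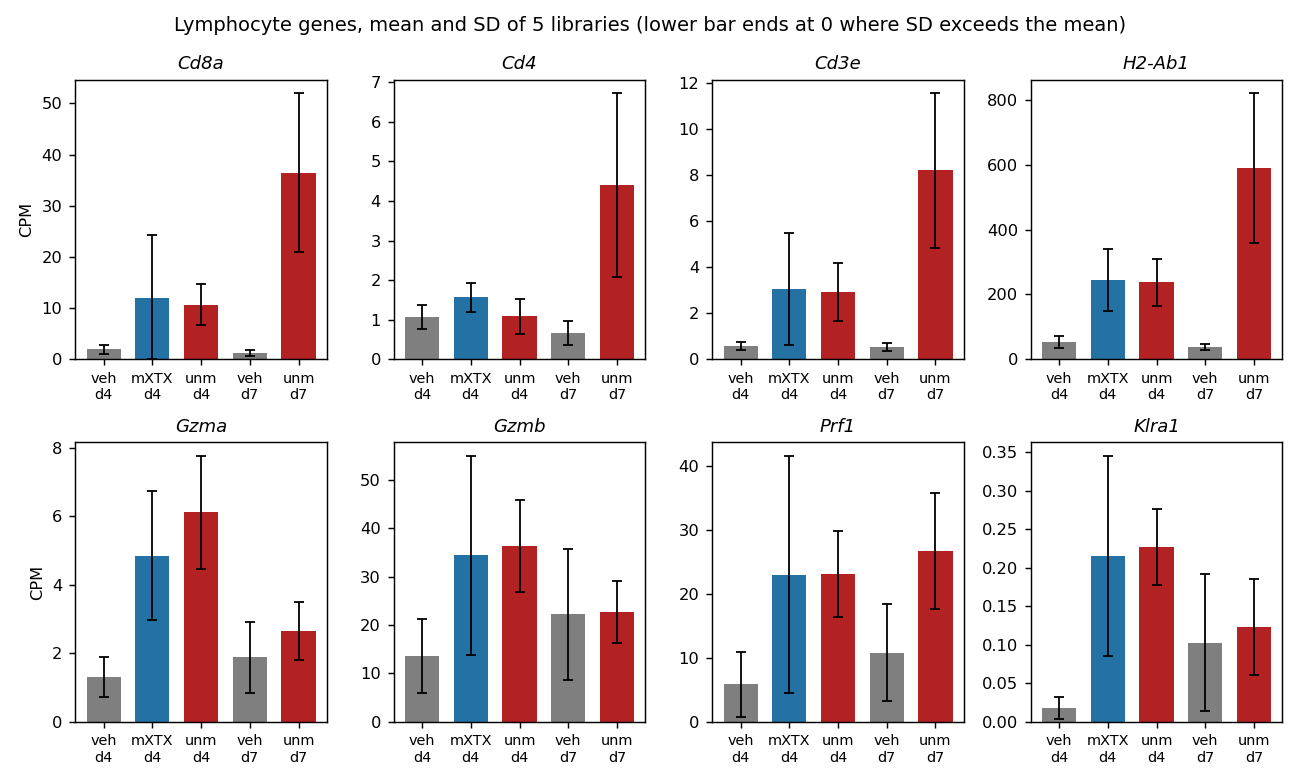
Mean level (bars, CPM) and SD (error bars) of 8 lymphocyte and presentation genes in vehicle, mXTX301 and the unmasked control at day 4, and in vehicle and the unmasked control at day 7. Cd8a, Cd4 and H2-Ab1 are highest in the unmasked control at day 7, while Gzma is highest in the unmasked control at day 4.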

How the data were processed

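RNA sequencing counts per gene for 30 libraries were taken as deposited by the authors, as whole-number raw counts. The submitters' processing notes name STAR 2.7.10a, HTSeq 0.11.1, edgeR 3.34.0, R 4.1.0, FastQC 0.11.9, cutadapt and the mm10 build, without roles or settings. Whether counting used strand is not given in the sources used here. Libraries were made with a TruSeq kit from NucleoSpin-extracted RNA, per the labels' protocols. A deposited table of normalised log2 values was not used.

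Libraries were grouped by treatment and day, 5 in each of 6 groups. Of 24557 gene entries, 5 with a repeated symbol were dropped. Genes were kept with filterByExpr (15482), scaled with TMM and fitted with edgeR 4.0.16 (R 4.3.3) over all 30 libraries with 1 mean per group and 24 residual degrees of freedom before moderation. Contrasts were tested with glmQLFTest, and p-values were adjusted by the Benjamini-Hochberg method over all tested genes. Calls have an adjusted p under 0.05. Levels are TMM-scaled CPM computed from the deposited counts, and SE and 95% intervals are those of the log2 fold change. The depth per library stands in the report, and intervals cover the spread between libraries. Gene positions are from GENCODE on GRCm38, promoters from RefSeq.

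The groups and the 55 gene lists were chosen with earlier results of these data known. Genes were named from a rule: the 30 panel genes, the 12 largest called rises and falls without overlap and a mean of at least 1 CPM, up to 6 members of each list by p and those against a list's majority, and the largest changes between days. Alternatives were DESeq2 1.42.0 size factors or its Wald test, limma-voom (limma 3.58.1), no filter, only the groups compared, a replicate block, a skin covariate, leaving out libraries over 10 times the median skin signal, and leaving out each library. Leaving out vehicle replicate 4 and unmasked replicate 5 together was chosen after seeing the data. Some genes that the rule would name are not reported here.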

Additional observations from a re-analysis of the deposited data

Results flagged for a closer look

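Libraries were screened for values far from the rest of their group of 5, on the log2 CPM scale. Of 230 groups screened 14 stood out, and chance flags about 1 in 20. Cxcl9 was high in unmasked replicate 2 (7.93). Mki67 (7.9) was low and Inpp5j (0.66) stood apart in vehicle replicate 5. Mean list levels in vehicle replicate 5 stood apart for guanylate-binding proteins (3.59), NK cells (0.02), ribosomal proteins (10.63), oxidative phosphorylation (7.62) and basement membrane (6.74). Monocyte genes stood apart in vehicle replicate 3 (4.37), endothelium in unmasked replicate 1 (2.62), basement membrane in unmasked replicate 5 (6.5) and skin in vehicle replicate 4 (2.17). Unmasked replicate 2 was low in skeletal muscle (-2.37) and stood apart in erythroid genes (-0.26). The part of these libraries in the gene results was not tested beyond leaving each out.

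Of 60 genes screened for a change of the effect between days, 16 passed the edgeR interaction test at an adjusted p under 0.05. The 60 included the largest called changes between days, which were picked because they had passed this test. The number that passed was therefore set in part by the choice of genes and is not a rate. Effects were higher at day 7 for H2-Ab1 (1.86 on the log2 scale), Cd8a (2.53), Cd4 (2.73), Aplnr (3.42), Pcdh12 (1.51) and Mmp15 (1.51). They were also higher for Apol7c (4.43), Fmod (3.26), Nov (3.03) and Tacr1 (2.54). They were lower for Tex11 (-2.96), Adgrl3 (-2.06), Acsm3 (-2.02), Robo1 (-2), Slc5a4a (-1.99) and Csn3 (-1.92).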

How the results depend on the processing

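Counts of genes called at day 4 kept within 1.5 times of 1800 higher and 1665 lower under every alternative run, except that 1055 were lower (1462 higher) when the fit held only the groups compared. Leaving out 1 library gave 1474 to 2101 higher and 1205 to 1757 lower. Of the 3465 calls, 66.6% (only the groups compared) to 99.9% (DESeq2) kept their direction and call. Against mXTX301, 0 genes either way became 12 higher and 13 lower with DESeq2 and 105 higher and 89 lower with only the groups compared. The change between days depended most on the processing. Its 457 higher calls became 269 without a filter, 985 with DESeq2, 276 with limma-voom, 187 with only the groups compared, 245 without skin-rich libraries and 71 to 1301 with 1 library left out. Its 341 lower calls became 204, 737 (DESeq2), 100 (only the groups compared), 159 (without skin-rich libraries) and 57 to 1724. Causes were not tested. Replicate numbers were not used to pair the libraries, since the labels tie them to nothing shared. Same-numbered libraries correlated at 0.022 to 0.392, over 0.1 in 3 of 5 numbers, against a mean of -0.038 for other pairs, and 4 of 10 libraries correlated best with their own number, which leaves pairing undecided. The replicate block gave 1822 higher and 1593 lower. Of 219 called genes among the 350 named by the rule, 168 kept their call under every alternative and 0 reversed. DESeq2 size factors moved the median over all genes from -0.011 to -0.014. Depth limits genes under about 1 CPM, where a few reads set the level.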

Other observations

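Several genes outside the main lines were also called at day 4, by edgeR's test. The mast cell and unfolded protein response lists held 1 call each. Those shares lie near or under the 11.6% higher and 10.8% lower over all genes, so they are not changes of the lists. Among 13 monocyte genes Ly6a, which interferons induce on many cells, rose 2.14-fold (adjusted p = 0.00069) and Ly6c1, which endothelium also expresses, rose 2.35-fold (adjusted p = 0.00268). Of 11 genes of migratory dendritic cells 2 rose and 2 fell: Mreg rose 1.84-fold (adjusted p = 0.000205), while Fscn1, an actin-bundling protein gene that tumour cells also express, fell 1.24-fold (adjusted p = 0.00163). The other fall was that of Nudt17 (1.41-fold, adjusted p = 0.0345), a call lost without vehicle replicate 5 (adjusted p = 0.153) or unmasked replicate 2 or 3 (adjusted p = 0.0891 and 0.0603), so that 1 fall was left in each case. Kit, the stem cell factor receptor gene, was the 1 mast cell list member that rose (1.73-fold, adjusted p = 0.011). Xbp1, a secretory stress factor gene, fell 1.15-fold (adjusted p = 0.00927), the 1 call among 13 genes of the unfolded protein response. Egr1 and Egr2, immediate early transcription factor genes, fell 1.95-fold and 1.79-fold (adjusted p = 0.00497 and 0.0169).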
